A study of Mus musculus with 4 samples.

Results

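Genes of epithelial cells were followed in mouse lung after inhalation of hexamethylene diisocyanate (HDI), a reactive monomer of polyurethane coatings: the 14-3-3 protein gene Sfn, the cornified envelope gene Sprr1a, and the keratin genes Krt8, Krt18 and Krt19. They were taken by name, with every probe set whose annotated symbol was one of these, which gave 5 of the 8251 named genes and 7 of the 12488 probe sets on the array. Each of the 4 samples was a pool of whole lungs from the inbred C57BL/6J strain, and its total RNA was read on 1 Affymetrix array. The groups were lungs without exposure, and lungs collected 6, 18 and 90 h after an HDI aerosol of 10 mg per cubic metre. All animals were of that strain with no genotype change named. The labels name no sex, age, number of mice per pool or length of exposure. Since each group is 1 array, no replicate spread could be had, no p-value is given, and a fold compares these arrays.

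Keratins are the intermediate filaments of epithelial cells and assemble from 1 type I and 1 type II chain. Krt8 is the type II chain, and Krt18 and Krt19 are type I chains, of simple epithelia such as those lining alveoli and airways. Krt8 is also known as a mark of transitional alveolar cells that appear in mouse lung while injured alveoli are rebuilt. Sfn encodes 14-3-3 sigma, the epithelial member of a family of phosphoprotein-binding adaptors, and is a p53 target that holds cells before mitosis. Sprr1a encodes a small proline-rich protein that transglutaminases crosslink into the cornified envelope, the tough inner coat of squamous cells, and it is also made by injured non-squamous cells.

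Krt8 and Krt18 lie next to each other on chromosome 15, Krt19 lies on chromosome 11 between Krt15 and Krt9, Sprr1a on chromosome 3 between Sprr3 and Sprr4, and Sfn on chromosome 4. Neighbours were taken among protein-coding genes of RefSeq on GRCm38.p6. Promoter sequences were available for 4 of the 5 genes and not for Krt19. These 4 are shown, and a link between their letters and the time courses was not tested. Each runs from 250 bases before to 50 bases after the annotated start, 5′ to 3′ on the strand of the gene, from RefSeq on GRCm38.p6. Their positions are chr3:92485832-92486131 on the minus strand for Sprr1a, chr4:133602119-133602418 on the minus strand for Sfn, chr15:102004293-102004592 on the minus strand for Krt8, and chr15:102027966-102028265 on the plus strand for Krt18, so the keratin pair is read in opposite directions, away from each other. Capitals mark the AP-1 motif TGACTCA and the TATA motif TATAAA, each searched on both strands.
Sprr1a: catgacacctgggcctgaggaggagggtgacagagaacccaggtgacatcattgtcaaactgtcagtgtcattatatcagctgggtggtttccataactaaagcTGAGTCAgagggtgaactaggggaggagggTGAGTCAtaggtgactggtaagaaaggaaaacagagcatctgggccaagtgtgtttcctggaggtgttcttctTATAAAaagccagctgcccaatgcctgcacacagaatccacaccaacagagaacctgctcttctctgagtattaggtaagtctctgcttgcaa
Sfn: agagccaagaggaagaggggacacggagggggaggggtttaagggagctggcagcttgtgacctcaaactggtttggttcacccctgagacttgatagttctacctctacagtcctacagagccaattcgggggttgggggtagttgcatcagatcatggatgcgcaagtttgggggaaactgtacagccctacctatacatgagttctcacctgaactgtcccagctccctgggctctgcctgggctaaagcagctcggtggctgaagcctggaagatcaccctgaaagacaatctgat
Krt8: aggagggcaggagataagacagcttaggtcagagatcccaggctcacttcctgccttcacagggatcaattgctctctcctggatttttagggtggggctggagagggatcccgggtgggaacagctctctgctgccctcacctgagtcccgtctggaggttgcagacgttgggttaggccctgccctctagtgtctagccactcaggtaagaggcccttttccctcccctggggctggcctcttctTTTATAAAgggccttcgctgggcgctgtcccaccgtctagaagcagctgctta
Krt18: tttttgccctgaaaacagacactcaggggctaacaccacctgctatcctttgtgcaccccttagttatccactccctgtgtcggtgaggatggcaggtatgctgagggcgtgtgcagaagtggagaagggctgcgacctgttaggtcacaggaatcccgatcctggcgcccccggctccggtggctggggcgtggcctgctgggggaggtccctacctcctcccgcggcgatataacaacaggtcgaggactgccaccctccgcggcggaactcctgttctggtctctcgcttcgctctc

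The Sprr1a promoter held the AP-1 motif at 2 places, beginning at -146 and -116 from the annotated start, each as TGAGTCA, the reverse complement of the motif searched. It also held TATAAA beginning at -43. Of 32851 RefSeq promoters of the same length, some from the same gene, 5.20% held the AP-1 motif, 0.222% held it at 2 or more places, and 13.6% held the TATA motif. The Krt8 promoter held overlapping TATA matches on both strands, at -3 and -1, and no AP-1 match. The Sfn and Krt18 promoters held neither motif. No promoter of these 4 held the GC box GGGCGG on either strand, which 35.7% of the promoters did. A match describes letters in this window and shows no binding.

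The arrays were alike in level. Median deposited intensities ran from 97.7 to 108 units over the 4 pools, and the ratio of the 3' to the 5' control probe set of Gapdh, a measure of RNA integrity, from 1.12 to 1.22. In the unexposed, 6, 18 and 90 h pools this ratio was 1.21, 1.16, 1.12 and 1.22, and that of beta-actin was 1.5, 1.30, 1.36 and 1.55. Both ratios were thus lower in the 6 and 18 h pools, in which the keratins were high, and their part in the keratin values was not tested. Intensities below are scaled values, each array being brought to the same trimmed mean. Dim values were raised to a floor of 77.7 units, the 40th percentile over the 4 scaled arrays, before log2 was taken. A fold with 1 pool under the floor is only a lower bound and is given with the words at least. All 5 genes exceeded the floor in 1 or more pools. Where probe sets of 1 gene could be compared, their log2 differences from unexposed lungs scattered with a robust SD of 0.28 per probe set at 6 h, 0.28 at 18 h and 0.25 at 90 h. That scatter holds no variation between animals or pools. Whole-lung RNA does not separate fewer or more cells of a type from less or more RNA per cell.

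**Figure D1:**
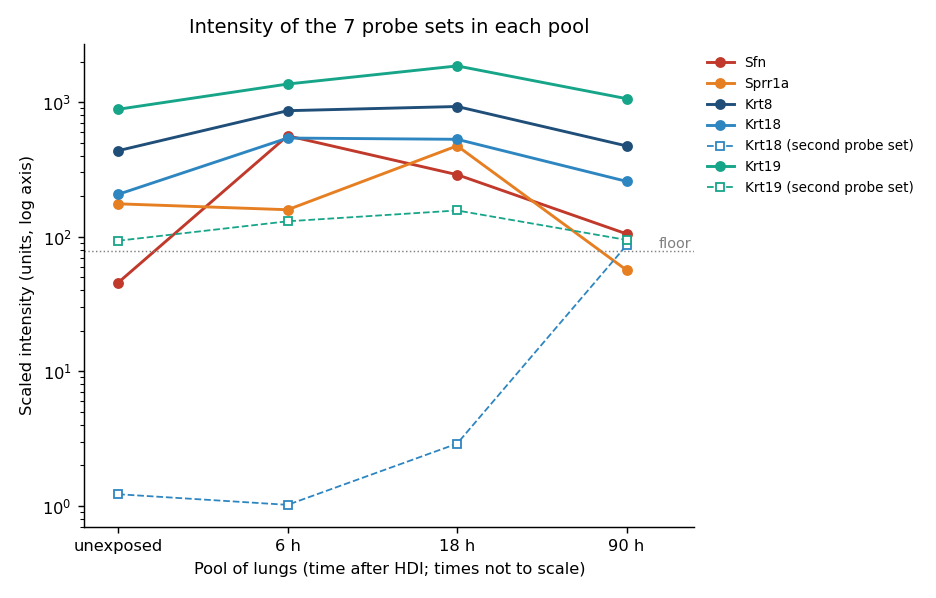
Scaled intensity (log axis) of the 7 probe sets of Sfn, Sprr1a, Krt8, Krt18 and Krt19 in the 4 pools, 1 array each; open squares with dashed lines are the second probe sets of Krt18 and Krt19, and the dotted line is the floor of 77.7 units. Sfn is highest at 6 h, Sprr1a at 18 h alone, and the 3 keratins at 6 and 18 h.

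At 6 h Sfn and Krt18 were at least 2-fold above unexposed lungs, at 18 h all 5 genes were, and at 90 h none was. The background of higher genes was 2.17% of 6044 compared at 6 h, 1.59% of 6040 at 18 h and 0.726% of 6061 at 90 h. Lower by at least 2-fold were 0 of the 5 genes at 6 h, 0 at 18 h and 1, Sprr1a, at 90 h, against 1.51%, 0.944% and 0.924% of all genes. The median log2 difference of the 5 genes was 0.99 at 6 h, 1.36 at 18 h and 0.26 at 90 h, and that of all genes compared was -0.04, -0.01 and 0.03. These 3 comparisons share the unexposed array, so their values are given side by side only. The 5 genes were also chosen with earlier results of these data known. Their counts beside the background are therefore a description and no independent evidence.

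Sfn, the 14-3-3 sigma gene, had the largest difference of the 5 genes at 6 h. Its probe set read 45.6 units in unexposed lungs, under the floor, and 562, 289 and 105 units at 6, 18 and 90 h. All 3 exposed pools lay above the unexposed one, with the highest value at 6 h and lower values at each later time. Against the floor Sfn was at least 7.23-fold above unexposed lungs at 6 h, at least 3.72-fold at 18 h and at least 1.35-fold at 90 h. Only 3 of the 6044 genes compared had a larger floored difference at 6 h, 13 of 6040 did at 18 h, and 498 of 6061 did at 90 h. The size rests on where the floor lies, since the unexposed value is below it. A floor at the 25th percentile gave log2 differences of 3.62 at 6 h, 2.66 at 18 h and 1.20 at 90 h, and Sfn then passed 2-fold at 90 h. A floor at the 60th percentile gave 2.03 at 6 h and 1.07 at 18 h, and no comparison at 90 h, where Sfn was then under the floor in both pools. Between exposed pools, which were all above the floor, Sfn was 1.94-fold lower at 18 h than at 6 h and 2.75-fold lower at 90 h than at 18 h.

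The other 14-3-3 genes are made in most cell types. All 6 on the array, Ywhab, Ywhae, Ywhag, Ywhah, Ywhaq and Ywhaz, were above the floor in every pool, and none was 2-fold away from unexposed lungs at any time. Their median log2 differences were 0.23, 0.24 and 0.25 at 6, 18 and 90 h. The largest was that of Ywhae, which read 120.2 units in unexposed lungs and 196, 184 and 144 units at 6, 18 and 90 h. This probe set carries a suffix for possible cross-hybridisation, called marked below. Its log2 differences were 0.70, 0.61 and 0.26. Ywhag had log2 differences of 0.20, 0.44 and 0.34, Ywhaz of 0.36, 0.13 and 0.08, and Ywhab of -0.06, 0.34 and 0.27.

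Among the p53 targets, the class of genes to which Sfn is assigned, 4 of 12 compared were at least 2-fold higher at 6 h, 1 of 12 at 18 h and 0 of 10 at 90 h, and none was 2-fold lower at these times. Their medians were 0.47, 0.21 and 0.14. Cdkn1a, the gene of the cell cycle inhibitor p21, read 161 units in unexposed lungs and 1016, 388 and 309.8 units at 6, 18 and 90 h, so that it too was highest at 6 h. Gadd45a, a stress gene of growth arrest, was at 52.1 units in unexposed lungs, under the floor, and at 219, 89.8 and 66.8 units at 6, 18 and 90 h. Sesn1, a sestrin, read 162 units in unexposed lungs and 427, 136 and 159 units at 6, 18 and 90 h, and was thus 2-fold higher at 6 h alone. Fas, a death receptor, was below the floor in unexposed lungs and at 226 units at 6 h, which gives at least 2.91-fold, by a probe set with a marked suffix. Mdm2, which is also a p53 target and was chosen after its values were seen, had log2 differences of 0.23, 0.10 and -0.04.

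Sprr1a was 2-fold above unexposed lungs at 18 h alone. It read 175 units in unexposed lungs, 159 units at 6 h, 473 units at 18 h and 56.4 units at 90 h. The 6 h pool was near the unexposed one, the 18 h pool stood above every other, and the 90 h pool was under the floor. Sprr1a was 2.70-fold above unexposed lungs at 18 h, and its log2 difference was -0.15 at 6 h, within the scatter between probe sets of 1 gene. At 90 h it was at least 2.26-fold lower. It was 2.98-fold higher at 18 h than at 6 h, and at least 6.09-fold lower at 90 h than at 18 h, a difference exceeded by 2 of the 5976 genes compared. A floor at the 60th percentile made the log2 difference at 90 h -0.35, under 2-fold.

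None of the other cornified envelope genes was 2-fold higher at 18 h. Of 16 on the array, 11 were compared with unexposed lungs. At 6 h 1 was at least 2-fold higher, at 90 h none was, and none was 2-fold lower at any of these times. Their medians were -0.11, -0.29 and -0.31 at 6, 18 and 90 h, and 1 of 11 was above 0 at 18 h. Scel, which encodes sciellin, a precursor of the envelope, was at 148 units in unexposed lungs and at 337, 112 and 87.3 units at 6, 18 and 90 h, so it was 2.28-fold higher at 6 h and not at 18 h. Lor, the gene of loricrin, the main envelope protein of skin, read 321 units in unexposed lungs and 206, 187 and 165 units at 6, 18 and 90 h, by a marked probe set. Sprr1b, the closest relative of Sprr1a, had log2 differences of 0.05, -0.03 and -0.48, also by a marked probe set, while its other probe set was under the floor in every pool. Sprr2i had log2 differences of -0.19, -0.40 and -0.45. Sprr2b, Sprr2e, Sprr2g and Sprr2k were, like Sprr2i, Sprr1b and Lor, compared by marked probe sets. The medians of this list thus rest largely on probe sets with possible cross-hybridisation. Ivl, Tgm3, Sprr3, Sprr2f and Sprr2h were under the floor in all 4 pools.

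Krt8 and Krt18, which pair in 1 filament, were high at both early times. Krt8 read 435 units in unexposed lungs and 863, 927 and 472 units at 6, 18 and 90 h. Krt18 read 206 units in unexposed lungs and 540.4, 529 and 258 units at 6, 18 and 90 h. For both genes the 6 and 18 h pools were close to each other, and the 90 h pool was close to the unexposed one. Krt8 was 1.98-fold above unexposed lungs at 6 h, just short of 2-fold, and 2.13-fold at 18 h. With deposited values left unscaled its log2 difference at 6 h was 1.10, past 2-fold. Krt18 was 2.62-fold higher at 6 h and 2.56-fold at 18 h. At 90 h the log2 differences were 0.12 for Krt8 and 0.32 for Krt18.

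Krt19 was highest at 18 h. Its brighter probe set read 884 units in unexposed lungs and 1361, 1856 and 1059.9 units at 6, 18 and 90 h, and its dimmer one read 93.3 units and then 130.1, 157 and 94.6 units. Both probe sets put the pools in the same order, with 18 h on top and 6 h next. By the brighter one Krt19 was 1.54-fold above unexposed lungs at 6 h, 2.10-fold at 18 h and 1.20-fold at 90 h. The dimmer one, a marked probe set, gave log2 differences of 0.48, 0.75 and 0.02, against 0.62, 1.07 and 0.26 by the brighter one.

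Krt18 also had a dim probe set that did not follow the bright one. It read 1.22 units in unexposed lungs and 1.02, 2.90 and 86.4 units at 6, 18 and 90 h. It thus lay under the floor in the unexposed, 6 h and 18 h pools and just over it at 90 h, so it gave no fold at 6 and 18 h. With both probe sets averaged, Krt18 had log2 differences of 0.69 at 6 h and 0.68 at 18 h, since a probe set under the floor in both pools counts as 0 there. Krt19 averaged over its probe sets had a log2 difference of 0.91 at 18 h. On that reckoning 1 of the 5 genes passed 2-fold at 6 h and 3 did at 18 h, against 1.70% and 1.24% of all genes.

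**Figure D2:**
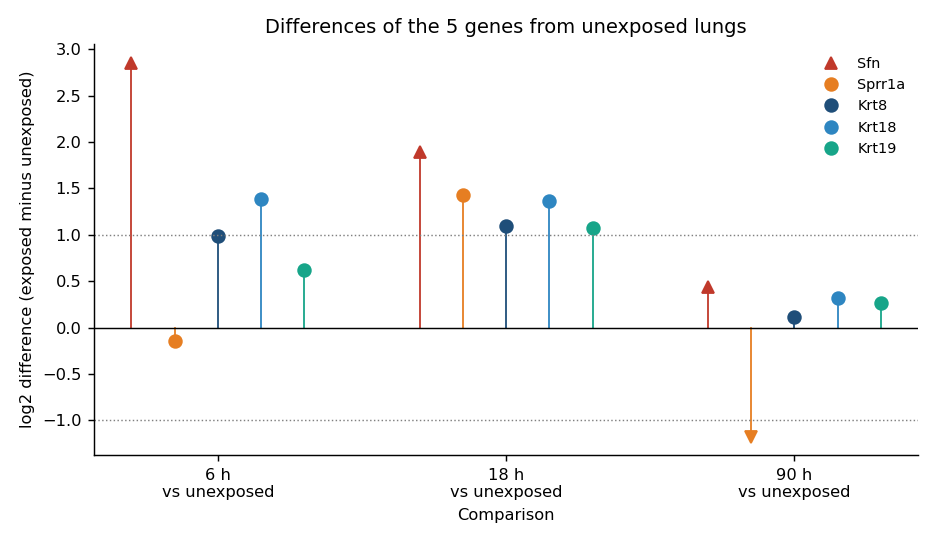
Log2 difference of each of the 5 genes from the unexposed pool at 6, 18 and 90 h, by the brightest probe set; triangles are bounds, where 1 pool was under the floor, and dotted lines mark 2-fold. All 5 genes pass 2-fold at 18 h, Sfn and Krt18 also at 6 h, and Sprr1a lies below -1 at 90 h.

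From 6 to 18 h only Sprr1a of the 5 genes was 2-fold different, and it was higher. Of 5995 genes compared, 1.18% were at least 2-fold higher at 18 h than at 6 h and 1.17% lower. The log2 differences of Krt8, Krt18 and Krt19 between these times were 0.10, -0.03 and 0.45, where probe sets of 1 gene scattered with a robust SD of 0.23. From 18 to 90 h all 5 genes were lower at the later time, and 3 of them, Sfn, Sprr1a and Krt18, by at least 2-fold. Of 5976 genes compared, 0.954% were lower by at least 2-fold and 0.904% higher. Krt18 was 2.05-fold, Krt8 1.96-fold and Krt19 1.75-fold lower at 90 h than at 18 h. The share of all genes with a lower difference than theirs was 0.870%, 1.04% and 1.69%. The pseudocount in place of the floor brought Krt18 to a log2 difference of -0.91 and averaging its probe sets to -0.44, both under 2-fold, and median scaling brought Krt8 just past 2-fold.

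The array held 30 other keratin genes, of which 23 were compared with unexposed lungs and 7 were under the floor in all pools. Of the 23, by the brightest probe set of each, 1 was at least 2-fold higher at 6 h, 1 at 18 h and 0 at 90 h, and none was 2-fold lower. Their medians were -0.06, -0.20 and -0.13 at 6, 18 and 90 h. Krt8, Krt18 and Krt19 had log2 differences of 0.99, 1.39 and 0.62 at 6 h and of 1.09, 1.36 and 1.07 at 18 h. At 90 h these were 0.12, 0.32 and 0.26. Krt7, a type II keratin of simple epithelia like Krt8, read 772 units in unexposed lungs and 1039.9, 1515 and 818 units at 6, 18 and 90 h. Like Krt19 it was highest at 18 h, with log2 differences of 0.43, 0.97 and 0.08. Krt17, a keratin of basal cells and wounded skin, was the 1 past 2-fold, with log2 differences of 1.25, 1.70 and 0.93 by its marked probe set with the highest mean. Another marked probe set of Krt17 gave -0.18, -0.78 and -0.73, so its probe sets disagree in sign. A dimmer, marked probe set of Krt81 read 291 units in unexposed lungs and 27.3, 22.3 and 6.14 units at 6, 18 and 90 h. Its log2 bound was -1.90 at each time, while the brightest one of Krt81 gave 0.10, -0.20 and -0.13. The dimmer probe set of Krt4 was higher at 18 h by a log2 bound of 1.36.

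**Figure D3:**
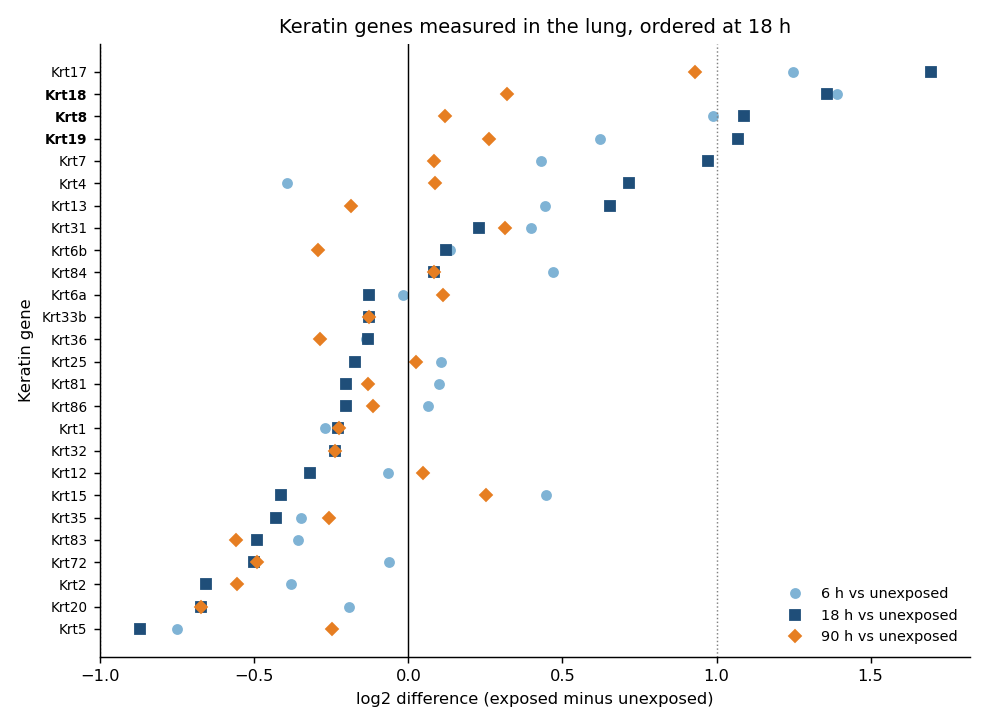
Log2 difference from the unexposed pool of the 26 keratin genes compared, Krt8, Krt18 and Krt19 in bold, at 6 h (circles), 18 h (squares) and 90 h (diamonds); dotted lines mark 2-fold and genes are ordered by the 18 h value. The points of Krt32 and Krt33b, and those of Krt5 and Krt6a at 18 h, are bounds. Krt17, Krt18, Krt8, Krt19 and Krt7 stand at the top, and Krt5 is lowest at 18 h.

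Keratins of squamous and basal epithelium, such as that of trachea, oesophagus or skin, did not move as 1 group. Of 10 markers on the array 7 were compared, 1 (Krt17) was 2-fold higher at 6 and at 18 h, and the medians were -0.02, -0.13 and 0.09. Their summed intensity was 1349 units in unexposed lungs and 1330.1, 1724 and 1453 units at 6, 18 and 90 h. Krt14, Krt10 and Trp63, genes of basal and skin cells, were under the floor in all pools, which does not show that they were absent. Krt1 and Krt15 of the same list were above it in every pool. Krt1 read 267 units in unexposed lungs and 221, 228 and 228 units at 6, 18 and 90 h. For Krt15 these values were 109, 149, 82.2 and 130 units. Krt5, the basal cell keratin, had log2 differences of -0.75 at 6 h and -0.25 at 90 h, and at 18 h it was under the floor, lower by at least the bound of -0.87. Krt4 and Krt13, keratins of oesophagus and hillock cells, had log2 differences of 0.72 and 0.65 at 18 h, the time of the highest Sprr1a value, and of -0.39 and 0.44 at 6 h. The other probe set of Krt4 was at 198.9 units at 18 h and under the floor in the other pools. The part of such tissue in the Sprr1a value was not tested.

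Genes of the cell junctions that hold keratin filaments were mostly near their unexposed level. Of 16 desmosome and linker genes on the array 11 were compared at 6 h, 10 at 18 h and 11 at 90 h, and their medians were 0.13, -0.08 and 0.00. Dsp, the gene of desmoplakin, which ties keratins to desmosomes, had log2 differences of 0.76, 0.56 and 0.56. Perp, a desmosome gene and p53 target, had 0.83, 0.21 and 0.09, highest at 6 h as Sfn was. Pkp4 had 0.50, 0.22 and 0.30. Dsc3, a desmocollin of squamous cells, read 314 units at 90 h and 6.63 units or less in the other pools, which gives at least 4.04-fold at 90 h.

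Other intermediate filament genes had medians of 0.08, 0.12 and 0.02 at 6, 18 and 90 h, with 6, 6 and 7 of 12 genes compared. Nes, the nestin gene, was 2.33-fold higher at 6 h and was the only 1 past 2-fold. Lmna, which encodes the nuclear lamins A and C, had log2 differences of 0.44, 0.89 and 0.38, Des, the muscle desmin gene, -0.31, 0.11 and -0.66, and Ina, a neuronal filament gene, 0.30, 0.13 and -0.08.

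Genes linked to transitional and injured epithelium, with the 5 genes left out, had medians of 0.45, 0.63 and 0.54. At 6 h 4 of 15 compared were at least 2-fold higher and 1 lower, at 18 h 4 of 16 were higher, and at 90 h 1 of 14 was. Earlier work on these arrays had shown this direction, so the list is no independent evidence of it. Of all genes compared 2.17% were higher and 1.51% lower at 6 h, 1.59% higher at 18 h and 0.726% at 90 h. Hbegf, an epidermal growth factor receptor ligand, read 218 units in unexposed lungs and 554, 577 and 246 units at 6, 18 and 90 h, highest at 6 and 18 h as the 3 keratins were. Plaur, the urokinase receptor, was under the floor in unexposed lungs and at 274, 148 and 61.8 units at 6, 18 and 90 h. Tnc, tenascin C, read 89.3 units in unexposed lungs and 119, 452 and 241 units at 6, 18 and 90 h, with its highest value at 18 h as for Sprr1a and Krt19. The 1 lower gene at 6 h was Sox4, chosen after its values were seen. It read 212 units in unexposed lungs and 95.1, 156 and 317 units at 6, 18 and 90 h. Its log2 differences were -1.16, -0.45 and 0.58.

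Among markers of epithelium as a whole none was 2-fold away from unexposed lungs. The junction and identity genes had medians of 0.21, 0.35 and 0.18 over 12, 13 and 12 compared of 17. Muc1, a surface mucin, had log2 differences of -0.30, 0.47 and 0.85, Klf5, an epithelial transcription factor, 0.63, 0.39 and 0.56, and the claudin genes Cldn7 and Cldn3 0.62 and 0.58 at 18 h. Summed over the 17 genes the intensity was 4302 units in unexposed lungs and 4657, 5245 and 5549 units at 6, 18 and 90 h. Much of this sum was Muc1, which read 993 units in unexposed lungs and 806, 1377 and 1795 units at these times. Epcam, Spint2, Ehf and Esrp1, also in the sum, were under the floor in all pools.

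None of the compared type I and type II cell markers was 2-fold away from unexposed lungs at any time. The 5 type I cell markers, all above the floor in every pool, had medians of -0.05, -0.08 and -0.19, and a summed intensity of 11339 units in unexposed lungs and 10896, 10375 and 10074 units at 6, 18 and 90 h. Among them Pdpn had a log2 difference of 0.54 at 18 h, Hopx of -0.31, Cav1 of -0.19 and Ager of -0.08. Of 6 type II cell markers 5 were compared, with medians of -0.09, 0.19 and 0.14 and a sum of 19003 units in unexposed lungs and 18137, 20096 and 19397 units at 6, 18 and 90 h. At 18 h Napsa, a protease that processes surfactant protein, had a log2 difference of 0.41, the surfactant gene Sftpb 0.29 and the phosphate carrier gene Slc34a2 0.16. Sftpc, which was chosen after its values were seen as the compared member below 0 at 18 h, had -0.11. Lpcat1, an enzyme of surfactant lipid, differed by -0.49, 0.19 and 0.53 on the log2 scale at 6, 18 and 90 h. Sftpd was under the floor in all pools.

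The 4 club cell markers had medians of -0.28, -0.49 and -0.27, and Cckar was 2.47-fold lower at 6 h and 2.23-fold lower at 18 h. Their sum was 15038 units in unexposed lungs and 12392, 11382 and 11555 units at 6, 18 and 90 h. At 18 h Cyp2f2, a P450 of club cells, had a log2 difference of -0.64, Scgb1a1, which encodes their main secretory protein, -0.35, and Aldh1a7 0.29. Of 4 ciliated cell markers only Foxj1 and Rsph1 were compared. Foxj1, the transcription factor of ciliated cells, stood at -0.23, 0.11 and -0.05 on the log2 scale relative to unexposed lungs, and Rsph1, of the cilium's radial spokes, at -0.09, -0.14 and 0.04. The list's sum was 699 units in unexposed lungs and 619.6, 715 and 689 units at 6, 18 and 90 h.

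Mesothelium, the cover of the lung, also makes Krt8, Krt18 and Krt19. Of its 5 markers Calb2 and Bnc1 were under the floor in all pools, and the medians were -0.17 over 2 genes at 6 h, 0.29 over 3 at 18 h and 0.59 over 3 at 90 h. Msln, the mesothelin gene, was under the floor in unexposed lungs and at 6 h, so its log2 differences of at least 0.63 at 18 h and at least 0.89 at 90 h are bounds. Upk3b had -0.59, 0.29 and 0.59, and Wt1 0.25, -0.40 and 0.12. The sum of the 5 was 424 units in unexposed lungs and 370.1, 502 and 586 units at 6, 18 and 90 h. It was lowest at 6 h and highest at 90 h. The part of mesothelium in the keratin values was not tested.

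White blood cell markers were low in the pools in which the keratins were high. The 4 genes had medians of -1.09, -0.77 and 0.16, and their summed intensity was 1737 units in unexposed lungs and 901, 1107 and 1989 units at 6, 18 and 90 h. Ptprc, the CD45 gene, read 331 units in unexposed lungs and 129, 162 and 345 units at 6, 18 and 90 h. Coro1a, an actin-binding gene of these cells, was 196 units in unexposed lungs and under the floor at 6 h, Laptm5 had a log2 difference of -0.84 and Cd53 of -0.64 at 6 h. The part of a changed mix of cells in the keratin values was not tested.

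**Figure D4:**
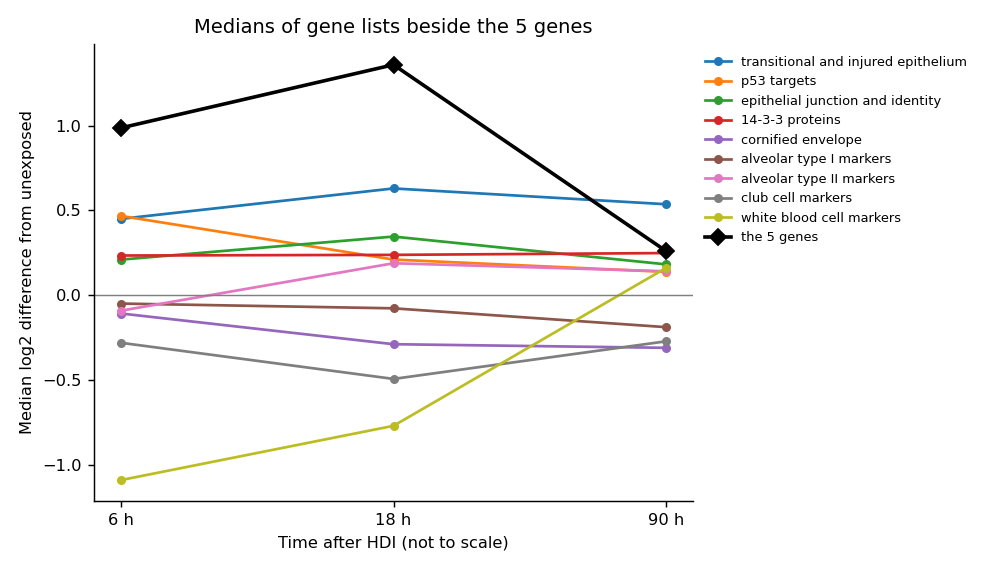
Median log2 difference from the unexposed pool at 6, 18 and 90 h for 9 gene lists (coloured circles) and for Sfn, Sprr1a, Krt8, Krt18 and Krt19 together (black diamonds). The 5 genes stand at 0.99, 1.36 and 0.26, above every list shown at 6 and 18 h, and the white blood cell markers are lowest at these times.

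The genes nearest to each of the 5 in time course were found by distance over the 3 log2 differences from unexposed lungs, among 6201 genes. This describes 3 values that share the unexposed array. Nearest to Krt8 were Osmr, the oncostatin M receptor gene, at a distance of 0.08 log2 units, the proteasome gene Psmc2 at 0.18 and the tubulin gene Tubb2a at 0.19. Nearest to Krt18 were Hbegf at 0.16, Ctps, an enzyme of CTP synthesis, at 0.21 and the transcription factor gene Junb at 0.26. Nearest to Krt19 were the aldehyde dehydrogenase gene Aldh3a1 at 0.11, the proteasome gene Psmd3 at 0.15 and the chaperonin gene Cct3 at 0.15. Krt8 and Krt18 were 0.52 apart, Krt8 and Krt19 0.39, and Krt18 and Krt19 0.82.

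For Sfn and Sprr1a the distances also rest on where the floor lies, since Sfn was under it in unexposed lungs and Sprr1a at 90 h. Nearest to Sfn were the metallothionein gene Mt1 at 0.52, the heat shock gene Hspa1a at 0.60 and the muscle actin gene Acta1 at 0.63. Mt1 read 396 units in unexposed lungs and 3892, 1506 and 446 units at 6, 18 and 90 h, and was thus measured in all pools, while Sfn, Hspa1a and Acta1 were under the floor in unexposed lungs. Nearest to Sprr1a were Stra6, a retinol transporter gene, at 1.10, Zfp354a at 1.11 and the glutathione transferase gene Gsta4 at 1.14. Stra6 read 188 units in unexposed lungs and 215, 300.2 and 137 units at 6, 18 and 90 h, a course in which 18 h is highest and 90 h lowest, as for Sprr1a. Besides those already named as marked, the values of Lmna, Ina, Krt4, Krt13, Cldn7, Rsph1, Sprr2i, Tubb2a and Junb come from marked probe sets.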

How the data were processed

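The authors deposited linear intensities, 1 per probe set and array. How they were computed and scaled is not stated in the labels or the table, and detection calls were not used.

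Names came from the platform annotation, updated by gene identifier, which changed 0 symbols. Of 12488 probe sets, 66 controls, 396 with several symbols and 1193 with none listed were left out of gene counts. Each array was scaled to a common mean after trimming 2% at each end, with factors of 1.07, 0.993, 0.970 and 0.972 for unexposed, 6, 18 and 90 h. Values under the 40th percentile were set to it, and log2 was taken. The brightest probe set by mean stood for a gene, which was compared where at least 1 of the 2 arrays was above the floor. With 1 array per group no test was made, and genes were counted past 2-fold. The number of arrays limits the precision. Python 3.11.15 with pandas 2.3.3 was used, and the code was tested on simulated data.

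The 5 genes and the 15 gene lists were chosen with earlier results of these data known. Some lists share genes. Genes named are the 5, up to 4 per list with the largest difference from unexposed lungs, and for each of the 5 the 3 nearest in time course. Mdm2, Sftpc, Sox4, Krt1 and Krt15 were added after their values were seen. Alternatives were other scalings, floors and thresholds, a pseudocount of 50 units, averaging probe sets, and leaving out probe sets with a marked suffix.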

Additional observations from a re-analysis of the deposited data

How the results depend on the processing

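Of 50 counts of the 5 genes past the threshold under an alternative, 40 stayed within 1.5 times the reported count. With all probe sets averaged 1 gene was higher at 6 h and 3 at 18 h, against 1.70% and 1.24% of all genes. Krt18 dropped out at both times, its dim probe set being under the floor, and Krt19 at 18 h, its marked probe set giving a smaller difference. With the floor at the 25th percentile 1 gene, Sfn, passed at 90 h, against 1.27% of all genes. A threshold of 1.5-fold gave 4 genes at 6 h, 2 different from 6 to 18 h and 5 from 18 to 90 h. At that threshold 7.16% of all genes compared were higher at 6 h. From 6 to 18 h 5.34% were higher and 4.75% lower, and from 18 to 90 h 3.68% and 3.98%. A threshold of 3-fold gave 1 at 6 h, 1 at 18 h, 0 from 6 to 18 h and 1 from 18 to 90 h. Of all genes 0.711% were then higher at 6 h and 0.397% at 18 h. From 6 to 18 h 0.217% were higher and 0.300% lower, and from 18 to 90 h 0.218% and 0.301%. None of the 199 single differences recomputed changed sign after passing 2-fold, and 185 stayed within 1.5-fold and on the same side of it. Of 326 list medians 322 did so. Unscaled values moved the median of all genes from -0.04, -0.01 and 0.03 to 0.07, 0.12 and 0.16 at 6, 18 and 90 h. No paired analysis was possible because each group is 1 array. Dim values limit Sfn in unexposed lungs and Sprr1a at 90 h, which are known only as bounds.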
